A study of Mus musculus with 2 samples.

Results

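Aminoacyl-tRNA synthetases are the enzymes that join each amino acid to its transfer RNA, the charging step that every round of protein synthesis depends on. Mammalian cells carry a cytosolic set and a largely separate mitochondrial set, both encoded in the nucleus. The mitochondrial set charges the transfer RNAs that mitochondrial ribosomes use to make subunits of the respiratory chain. Several cytosolic synthetases are held together in a multi-synthetase complex, and many cytosolic synthetase genes are known targets of ATF4, a transcription factor that answers amino acid shortage. The genes described here were picked by symbol alone, under their current name or the older name without the final 1, and 35 of the 15576 genes in the table were found, all that were sought. Of these, 19 encode cytosolic enzymes or their subunits and 16, with names ending in 2, encode mitochondrial enzymes. Gars1 and Kars1, counted as cytosolic, also serve mitochondria. The table listed 15 of the cytosolic genes under the older symbol, and current symbols are used throughout.

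RNA was sequenced from wild-type mouse bone marrow-derived macrophages, a primary culture of macrophages differentiated out of marrow. For the DCA library the cells were kept with deoxycholic acid, a bile acid made by gut bacteria, at 100 µM for 24 h, and for the NC library they were kept without it. Each group had 1 library, so no difference has a replicate check and no test between the conditions was possible. Not given in the sources used here were the number, sex and age of the mice, any pooling of cultures and the vehicle of the NC cells, and the labels leave unclear whether the cells were collected at the end of the 24 h or a day later.

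The deposited values are FPKM, which scale a gene's reads to its length in kilobases and to 1e6 reads of the library, and the totals were 56.6 M reads in DCA and 59.2 M in NC (M for 1e6). Whole reads could be rebuilt from them for every one of the 35 genes, and the ratio of FPKM, DCA over NC, is given with an exact 95% interval (Clopper-Pearson). That interval covers counting error only, takes each read as a separate molecule, and compares these libraries rather than the conditions. The 9653 genes that averaged at least 1 FPKM and were above 0 in both libraries are called the tested genes, although no statistical test was run on them. Their median ratio was 1.006, with quartiles of 0.963 and 1.06, and 53.5% of them had a ratio over 1. All 10 macrophage markers had a value above 0, with Cd68 at 389 FPKM in both libraries, and their median ratio was 0.939. Neutrophil markers were present too, 14 of 14 with a ratio over 1 and a median of 1.17, and so were B cell markers, 6 of 6 tested ones higher with a median of 1.204. Their summed FPKM were 4324 in DCA and 3661 in NC for the neutrophil list and 158.8 and 128.8 for the B cell list. In RNA from a mixed culture, fewer cells of a type and less RNA per cell cannot be told apart, and the part of these other cells in the synthetase values was not tested.

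The cytosolic synthetases were higher in DCA by a few percent, and the mitochondrial ones were split in both directions. Of the 19 cytosolic genes 15 had a ratio over 1, where 53.5% of all tested genes did, and their median ratio was 1.04. The mitochondrial genes had 8 members over 1 and 8 below 1, with a median of 1.01, where 54.1% of tested genes with as many reads as the 13 tested mitochondrial genes lay over 1. None of the 35 genes was 1.5-fold apart, a distance that 0.901% of the tested genes reached. Summed over the cytosolic genes, 137148 reads in DCA and 138402 in NC gave a ratio of 1.04 (1.03 to 1.04), and these reads were 0.242% and 0.234% of the totals. The mitochondrial genes summed to 23837 and 24534 reads, a ratio of 1.02 (0.999 to 1.04), or 0.0421% and 0.0414% of the totals.

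**Figure D1:**
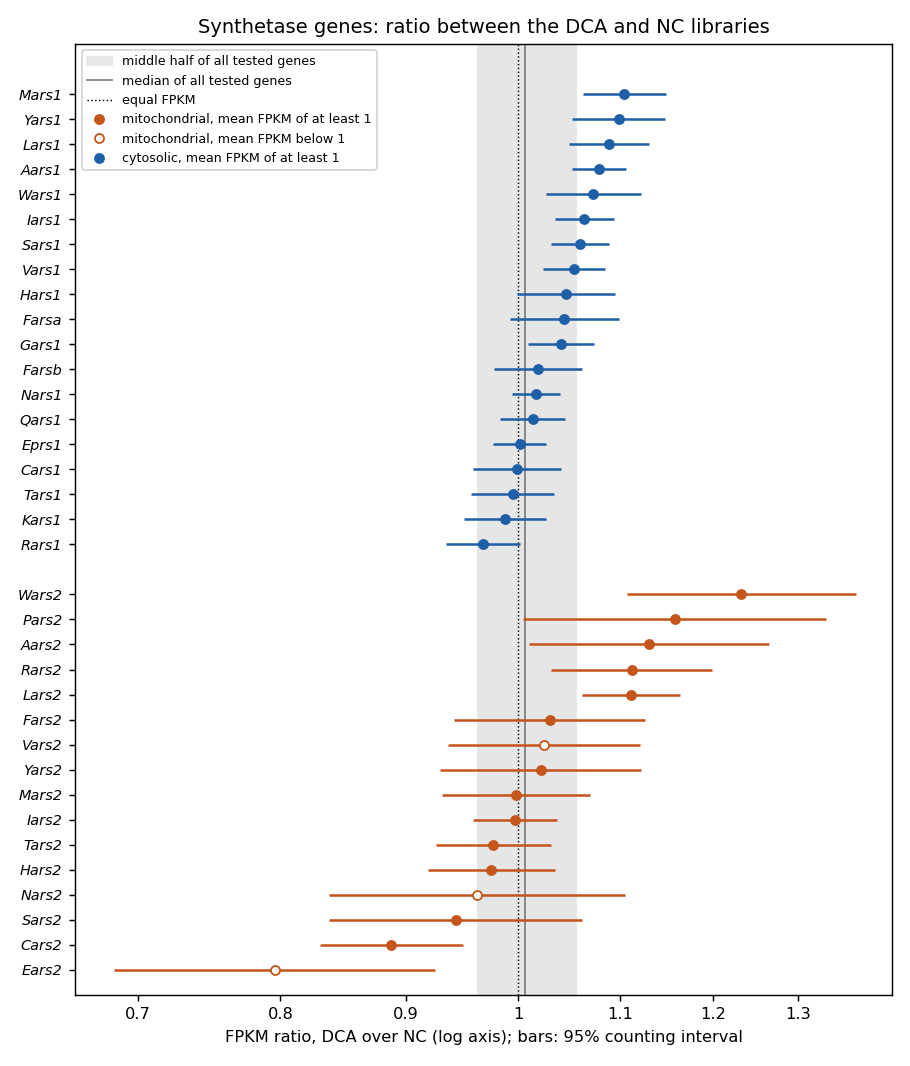
FPKM ratio of each synthetase gene, DCA over NC, on a log axis, with its 95% counting interval as a bar, cytosolic genes above and mitochondrial genes below; open circles are genes with a mean FPKM below 1. Ratios of the cytosolic genes run from 0.967 for Rars1 to 1.104 for Mars1, and those of the mitochondrial genes spread more widely, from 0.796 for Ears2 to 1.23 for Wars2.

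Every cytosolic gene lay above every mitochondrial gene in level, in both libraries. The deposited FPKM cannot rank genes, since its gene length is the sum over all annotated transcripts, so levels were recomputed as reads per kilobase of the principal coding transcript and 1e6 reads. On that scale the cytosolic genes had a median of 37.2 in NC and 39.2 in DCA, and the mitochondrial genes 6.65 and 6.61. The cytosolic median was 5.59 times the mitochondrial one in NC and 5.93 times in DCA. Nars1, for asparagine, had the highest level, at 97.5 in NC and 99.1 in DCA, followed by Gars1, for glycine, at 57.5 and 59.9. The lowest cytosolic gene was Tars1, for threonine, at 22.2 and 22.1. Its mitochondrial counterpart Tars2 was the highest of its group, at 19.5 and 19.1. Nars2 was at the foot of the order, with 1.94 in NC and 1.86 in DCA. Mars2 stood low, at 2.49 and 2.48, over an annotated transcript of 11294 bases. With the merged length of all annotated exons in place of the principal transcript the groups still did not overlap, at 11.1 or more for the cytosolic genes and 9.67 or less for the mitochondrial genes in NC.

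**Figure D2:**
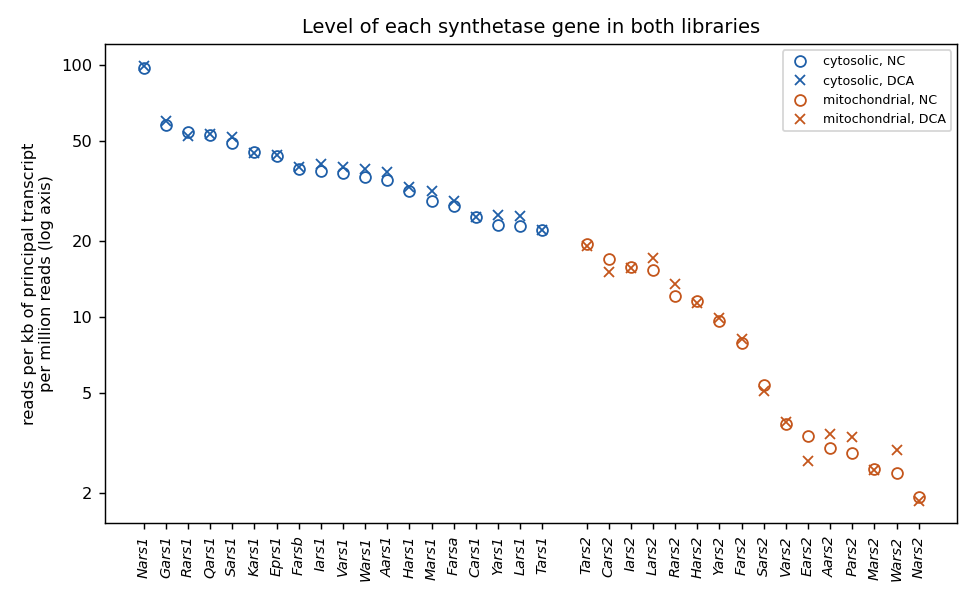
Level of each synthetase gene in reads per kilobase of its principal transcript and 1e6 reads, on a log axis, with circles for NC and crosses for DCA, ordered by the NC level within each compartment. All cytosolic genes, at 22.1 or more, lie above all mitochondrial genes, at 19.5 or less, and circle and cross nearly coincide for most genes.

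Among the cytosolic genes the highest ratios were those of Mars1, Yars1, Lars1 and Aars1. Mars1 (ENSMUSG00000040354, GRCm38 chromosome 10, 127296221 to 127311786, minus strand), the methionyl-tRNA synthetase, was at 7.94 FPKM in NC (4997 reads) and 8.77 in DCA (5272 reads). Its ratio of 1.104 (1.06 to 1.15) made it the 1 cytosolic gene at least 1.1-fold higher in DCA, a distance that 13.2% of all tested genes reached and 5.31% of those with as many reads as the cytosolic set. No cytosolic gene was as far apart in the lower direction, where 2.98% of the genes in that read range were. At a limit of 5% instead, 8 of the 19 were higher and 0 lower, against 27.2% and 20.5% of the tested genes. Those shares were not matched for reads. In the cytosolic read range the quartiles of the ratio were 0.970 and 1.04, against 0.963 and 1.06 for all tested genes. Mars1 shares 68 exonic bases (1.99% of its exons) with Ddit3 on the opposite strand, which had a ratio of 0.970 (0.904 to 1.04). The summed reads of both genes had a ratio of 1.07 (1.035 to 1.11).

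Yars1, the tyrosyl-tRNA synthetase (ENSMUSG00000028811, chromosome 4, 129189760 to 129219607, plus strand), was at 7.08 FPKM in NC and 7.78 in DCA, a ratio of 1.099 (1.052 to 1.15). It shares 30 exonic bases with C77080 on the opposite strand, which lay the other way at 0.916 (0.880 to 0.953), and the summed reads of both genes had a ratio of 0.996 (0.967 to 1.03). The part of the overlap in the ratio of Yars1 was not tested. Lars1, the leucyl-tRNA synthetase that also reports leucine to the mTORC1 kinase, was at 7.70 FPKM in NC against 8.38 in DCA, a ratio of 1.09 (1.048 to 1.1298). Aars1, for alanine, was at 13.6 FPKM in NC against 14.7 in DCA, with 11898 and 12261 reads behind a ratio of 1.08 (1.052 to 1.11). It shares 1326 exonic bases, 14.3% of its exons, with Exosc6 on the same strand, which had 1 read in NC and 21 in DCA. The summed reads of Aars1 and Exosc6 had a ratio of 1.08 (1.053 to 1.108). Mars1, Yars1, Lars1 and Aars1 were each higher in DCA by more than their counting error.

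The interval also lay above 1 for Wars1, Iars1, Sars1, Vars1 and Gars1, with ratios from 1.04 to 1.07. Wars1, the tryptophanyl-tRNA synthetase, whose gene is induced by interferon gamma, was at 5.24 FPKM in NC and 5.62 in DCA, a ratio of 1.07 (1.03 to 1.12). The others charge isoleucine, serine, valine and glycine, and Iars1 had the next highest ratio, 1.06 (1.03 to 1.09). In all, 9 of the 19 cytosolic genes had an interval above 1, where 25.6% of the tested genes with rebuilt reads did. None had an interval below 1, against 20.1%, and the other 10 included equality. At these depths, from 2980 to 15852 reads a gene, the interval reached a median of 3.74% to each side of the ratio. Among the 4033 tested genes with as many reads as the cytosolic synthetases, 26.7% had an interval above 1, 21% had one below 1, 53.8% had a ratio over 1, and the quartiles of the ratio were 0.970 and 1.04.

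Between these and the lowest ratios lay Hars1, for histidine, at 1.045 (0.999 to 1.09), the phenylalanine subunits Farsa at 1.04 (0.992 to 1.099) and Farsb at 1.02 (0.978 to 1.06), Nars1 at 1.02 (0.994 to 1.04) and Qars1, for glutamine, at 1.01 (0.983 to 1.04). All 5 intervals include equality. Hars1 and its neighbour Hars2 share 195 exonic bases on opposite strands.

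The lowest cytosolic ratios belonged to Rars1, Kars1, Tars1 and Cars1. Rars1, for arginine, was at 23.8 FPKM in NC and 23.1 in DCA, a ratio of 0.967 (0.935 to 1.001). Kars1, the lysyl-tRNA synthetase, which also supplies the mitochondrial enzyme, was at 9.56 FPKM in NC against 9.44 in DCA, a ratio of 0.988 (0.9503 to 1.03). Tars1, for threonine, was at 7.53 FPKM in NC against 7.49 in DCA, and Cars1, for cysteine, at 6.53 against 6.52, with ratios of 0.995 (0.957 to 1.03) and 0.999 (0.959 to 1.04). All 4 intervals include equality, so no difference was detectable at this depth.

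Within the cytosolic set, the synthetases often listed as ATF4 targets, by general knowledge of that pathway, had a higher median ratio than the rest. Of those 13 genes 11 had a ratio over 1 and 9 had an interval above 1, with a median ratio of 1.06. Of the other 6 genes (Farsa, Farsb, Hars1, Kars1, Qars1 and Rars1) 4 had a ratio over 1 and 0 had an interval above 1, with a median of 1.02. Of all tested genes 53.5% had a ratio over 1, and of those with rebuilt reads 25.6% had an interval above 1. The summed reads gave 1.046 (1.04 to 1.06) for the first group and 1.007 (0.991 to 1.02) for the second. Within the first group Tars1, Cars1, Eprs1 and Nars1 had intervals that include equality. The difference between these groups has no test here, as it rests on 1 pair of libraries. The groups were also drawn up with earlier results of these data known.

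The 7 synthetases of the multi-synthetase complex differed among themselves. Mars1, Lars1 and Iars1 had intervals above 1, while Eprs1, Qars1, Kars1 and Rars1 had ratios from 0.967 to 1.01 with intervals that include equality. Eprs1, a fused enzyme that charges both glutamate and proline transfer RNA, was at 8.16 FPKM in NC and 8.17 in DCA, a ratio of 1.001 (0.977 to 1.03). The median of the 7 was 1.01, and that of the 12 cytosolic genes outside the complex was 1.04. The scaffold proteins of the complex lay above 1 as well. Aimp1 was at 5.23 FPKM in NC against 5.47 in DCA, a ratio of 1.045 with no rebuilt reads, Aimp2 at a ratio of 1.03 (0.924 to 1.14), and Eef1e1, the third scaffold gene, 1.08 (0.998 to 1.17). By the structural class of the catalytic domain, the 9 class I cytosolic genes had a median of 1.06 and the 9 class II genes 1.04, with Eprs1 left out because it holds a domain of each class.

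**Figure D3:**
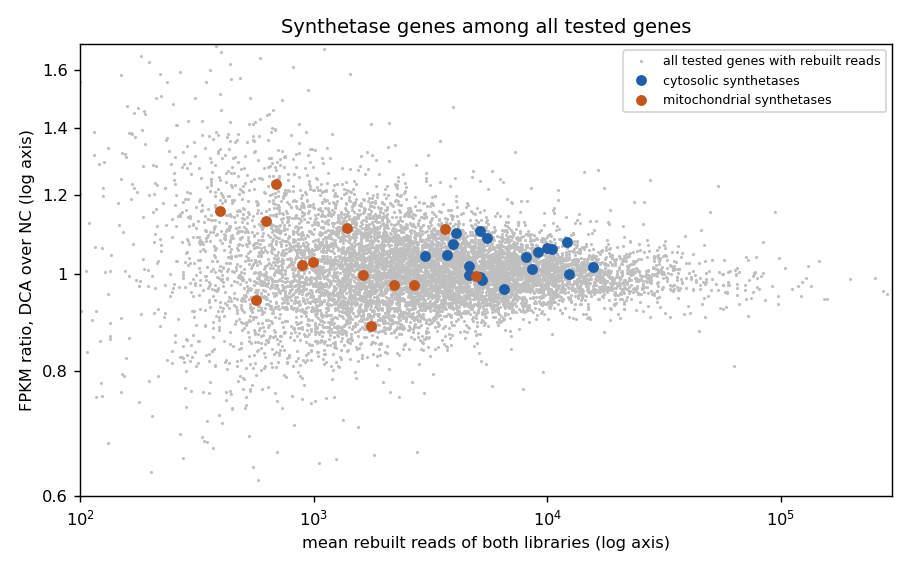
FPKM ratio, DCA over NC, against the mean rebuilt reads of both libraries, both on log axes, with tested genes in grey, cytosolic synthetases in blue and mitochondrial synthetases in orange; 68 of 9467 genes lie outside the axes. The cytosolic genes sit at higher read counts, mostly on the upper side of the cloud, and the mitochondrial genes at lower counts, where the cloud is wider.

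The promoters of the cytosolic genes were searched for the core of the C/EBP-ATF response element, the sequence through which ATF4 acts, since this is a feature that the choice of genes did not use. The motif searched was TGATGNAA on either strand, with N for any base, from 250 bases before to 50 bases after the start. Of the 35 genes, 26 matched an entry of the RefSeq promoter table (GRCm38.p6), 12 cytosolic and 14 mitochondrial. The motif was found in 5 of the 12 cytosolic promoters (41.7%), in 0 of the 14 mitochondrial ones and in 3.97% of all 32851 promoters of the table. A match is shown for each of the 5 genes, 5′ to 3′ on the strand of the gene with the motif in capitals, so a match on the opposite strand reads TTNCATCA, and the distance of its first base from the start is given.
Aars1, base 10 after the start, chr8:111033840-111033869, plus strand: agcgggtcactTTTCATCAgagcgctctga
Gars1, 30 bases before the start, chr6:55037960-55037989, plus strand: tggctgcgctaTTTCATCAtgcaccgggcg
Iars1, base 8 after the start, chr13:49682126-49682155, plus strand: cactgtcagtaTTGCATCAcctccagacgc
Tars1, 15 bases before the start, chr15:11399655-11399684, minus strand: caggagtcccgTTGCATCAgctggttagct
Yars1, base 4 after the start, chr4:129189895-129189924, plus strand: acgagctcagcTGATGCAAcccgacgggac
The 5 cytosolic genes with a match had a median ratio of 1.06, from 0.995 for Tars1 to 1.099 for Yars1. The 7 matched cytosolic genes without it had a median of 1.02, from 0.988 for Kars1 to 1.104 for Mars1. All 5 genes with a match are also among those often listed as ATF4 targets, and Farsa, Farsb, Kars1 and Qars1, without one, are not. The split by motif is therefore not independent of the split by that list. The ranges overlap, and a match in a window describes its letters and not a bound site.

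The mitochondrial synthetases held both the highest and the lowest ratios of the family. The interval lay above 1 for 5 of the 16 and below 1 for 2, and included equality for the other 9. They had fewer reads than the cytosolic genes, from 311 to 5089, and the interval reached a median of 8.97% to each side. Among tested genes with as many reads, 25% had an interval above 1 and 17.9% had one below 1. The limit of 1 FPKM on average was met by 13 of the 16, and 5 of these 13 were at least 1.1-fold higher in DCA, a distance reached by 13.2% of all tested genes and by 15.7% of those with as many reads. At least 1.1-fold lower was 1 of the 13, Cars2, against 8.32% and 10.6%. The 3 below the FPKM limit were Ears2, Nars2 and Vars2, and the limit acts on a deposited FPKM that is lower for genes with many transcripts. Wars2 and Pars2 were below 1 FPKM in NC and above it in DCA, so their place among the 13 rests in part on their DCA value.

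Wars2, the mitochondrial tryptophanyl-tRNA synthetase (ENSMUSG00000004233, chromosome 3, 99141068 to 99239186, plus strand), was at 0.987 FPKM in NC (630 reads) and 1.22 in DCA (742 reads). Its ratio of 1.23 (1.11 to 1.37) was the highest of the family. Pars2, for proline, was at 0.995 FPKM in NC (376 reads) and 1.15 in DCA (416 reads), a ratio of 1.16 (1.005 to 1.33). Aars2, for alanine, was at 1.34 FPKM in NC against 1.51 in DCA, a ratio of 1.1303 (1.01 to 1.27). For these 3 genes the intervals are wide, and that of Pars2 starts just above equality.

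Rars2, for arginine, and Lars2, for leucine, were higher with more reads behind them. Rars2 was at 3.75 FPKM in NC (1343 reads) and 4.17 in DCA (1427 reads), a ratio of 1.11 (1.03 to 1.199). Lars2 was at 3.32 FPKM in NC (3545 reads) and 3.69 in DCA (3764 reads), a ratio of 1.11 (1.06 to 1.16). None of these 5 genes has an exon that overlaps another annotated gene.

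On the lower side stood Ears2 and Cars2. Ears2, the mitochondrial glutamyl-tRNA synthetase (ENSMUSG00000030871, chromosome 7, 122037213 to 122067263, minus strand), which charges glutamine transfer RNA with glutamate as well, was at 0.679 FPKM in NC (409 reads) and 0.541 in DCA (311 reads), a ratio of 0.796 (0.684 to 0.924). Cars2, for cysteine (ENSMUSG00000056228, chromosome 8, 11513977 to 11550783, minus strand), was at 1.98 FPKM in NC (1905 reads) and 1.76 in DCA (1616 reads), a ratio of 0.888 (0.830 to 0.949). Both genes overlap a neighbour on the opposite strand, and how the counting treated strand was not stated in the labels. Naxd, which shares 422 exonic bases with Cars2, lay the other way at 1.26 (1.18 to 1.35), and the summed reads of both genes had a ratio of 1.052 (1.003 to 1.104). Ubfd1, which shares 89 bases with Ears2, had a ratio of 1.02 (0.975 to 1.07). The part of the overlap in either ratio was not tested.

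The next lowest were Sars2, for serine, at 0.943 (0.838 to 1.06), Nars2 at 0.962 (0.838 to 1.105), Hars2, for histidine, at 0.975 (0.919 to 1.03) and Tars2 at 0.977 (0.925 to 1.03). Sars2 was at 2.26 FPKM in NC against 2.14 in DCA, Hars2 at 4.30 against 4.19, and Tars2 at 1.81 against 1.77. Iars2, Mars2, Yars2, Vars2 and Fars2 lay between 0.997 and 1.03, and all 9 intervals include equality. By structural class, the 9 class I mitochondrial genes summed to a ratio of 1.03 (1.003 to 1.048) and the 7 class II genes to 0.999 (0.969 to 1.03).

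Set side by side, the medians of the tested members were 1.04 for 19 cytosolic and 1.02 for 13 mitochondrial genes, a distance of 0.03 on the log2 scale. This order did not hold across the ways of choosing genes. Without the 6 cytosolic and 7 mitochondrial genes whose exons overlap another gene, the cytosolic median was still 1.04 and the mitochondrial median was the higher one at 1.11, a distance of -0.09. Of the 9 mitochondrial genes without such an overlap 6 had a ratio over 1, and of the 7 with one 2 did, with a median of 0.975. Among all tested genes 53.5% had a ratio over 1, a share not computed apart for genes with and without an overlap. All 9 were tested genes, but Wars2 and Pars2 among them were tested in part through their DCA value. The 7 include Ears2, Nars2 and Vars2, which were below the FPKM limit. The scatter differed more plainly than the middle. Over all members the SD of the ratios across genes was 3.99 percentage points for the cytosolic group and 10.8 for the mitochondrial group. The mitochondrial value includes Ears2, at 0.796. Counting intervals reached a median of 3.74% and 8.97% to each side, which is not an SD and cannot be set directly against one. Tested genes in the mitochondrial read range also spread more widely than those in the cytosolic range. Their quartiles were 0.956 and 1.067, against 0.970 and 1.04. Whether the mitochondrial scatter exceeds that of other genes at its depth was not tested.

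Matching the compartments by amino acid gave no common direction either. A cytosolic and a mitochondrial gene could be paired for 16 amino acids in 17 pairs, since Fars2 was paired with both subunits of the cytosolic phenylalanyl-tRNA synthetase, and Eprs1 serves in the glutamate and the proline pair. The cytosolic gene had the higher ratio in 11 pairs and the lower in 6. The exact conditional 95% interval for the quotient of the ratios lay above 1 in 4 pairs, below 1 in 3 and included 1 in 10. No such share was computed for pairs of other genes. For single genes, 25.6% of the tested genes with rebuilt reads had an interval above 1 and 20.1% one below 1.

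For glutamate the ratio of Eprs1 was 1.26 (1.08 to 1.47) times that of Ears2, and for cysteine that of Cars1 was 1.12 (1.04 to 1.22) times that of Cars2. Methionine, at 1.11 (1.02 to 1.198), and isoleucine, at 1.07 (1.02 to 1.12), lay the same way. In both of these the cytosolic gene was higher in DCA, while Mars2 and Iars2 had ratios of 0.998 (0.931 to 1.07) and 0.997 (0.958 to 1.04). In each of these 4 pairs a gene has exons that overlap another gene, Ears2, Mars1, Iars2 and, in the cysteine pair, both genes. Iars2 shares 2034 exonic bases, 22.9% of its exons, with Rab3gap2 on the opposite strand, which had a ratio of 0.938 (0.913 to 0.964). How the counting treated strand is unknown, and the part of the overlaps in these quotients was not tested. Ears2 was also below the limit of 1 FPKM on average. The opposite order was found for arginine, at 0.870 (0.801 to 0.945), tryptophan, at 0.870 (0.774 to 0.978), and proline, at 0.865 (0.748 to 0.999), and no gene of these 3 pairs has overlapping exons. Alanine and leucine were higher in both compartments, with quotients of 0.954 (0.850 to 1.07) and 0.979 (0.923 to 1.04). Tryptophan was higher in both as well, with Wars1 at 1.07 (1.03 to 1.12) and Wars2 at 1.23 (1.11 to 1.37).

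**Figure D4:**
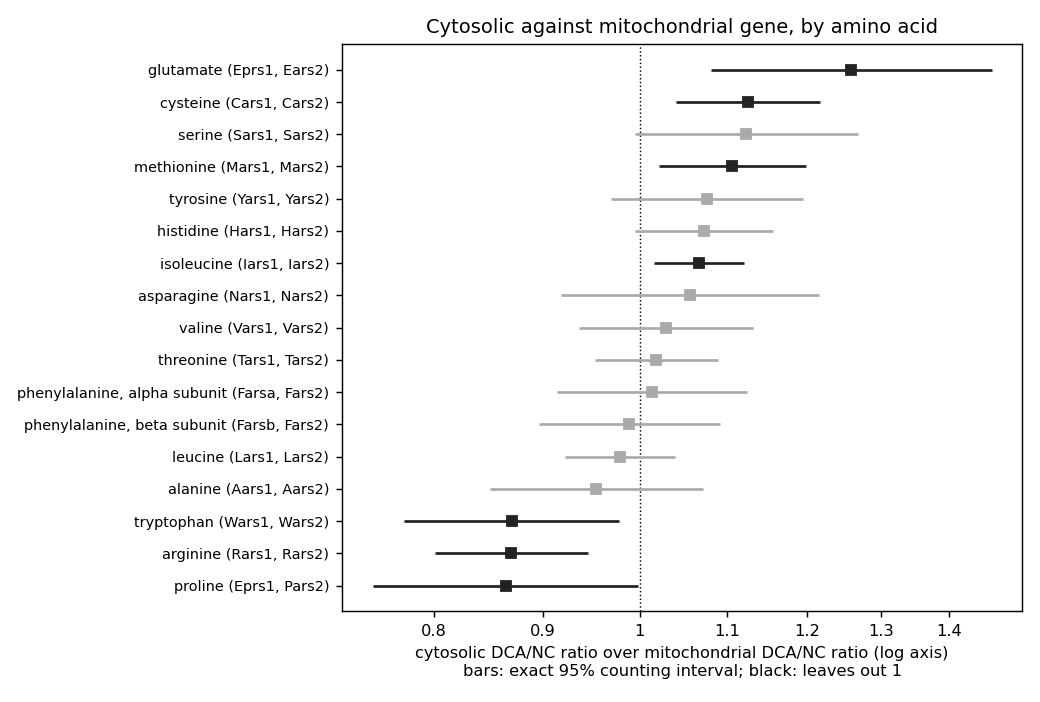
Quotient of the DCA over NC ratios of the cytosolic and the mitochondrial gene for each amino acid, on a log axis, with exact 95% counting intervals, black where the interval leaves out 1. Glutamate, cysteine, methionine and isoleucine lie above 1, tryptophan, arginine and proline below it, and the other 10 pairs include it.

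Other genes that act on charged transfer RNA were described from lists set beside the members. Tars3, a further threonyl-tRNA synthetase gene that is not among the 35, had a ratio of 0.951 (0.847 to 1.07). Of the 6 genes for selenocysteine, which is made on its transfer RNA, 4 were over 1, where 53.5% of all tested genes were. The median of the 6 was 1.06. Sepsecs, the enzyme that completes that conversion, was at 1.78 FPKM in NC and 1.98 in DCA, a ratio of 1.12 (1.04 to 1.19). Pstk, the kinase of the step before it, whose exons overlap Ikzf5, was at 1.17 FPKM in NC against 1.03 in DCA, a ratio of 0.883 (0.8001 to 0.974). Of 3 tested trans-editing and deacylase genes, which clear wrongly charged transfer RNA, 2 were over 1, from 0.937 (0.862 to 1.02) for Prorsd1 to 1.15 (1.02 to 1.299) for Dtd2.

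On the mitochondrial side, the amidotransferase subunits and the formyltransferase had a median of 0.989 over 4 genes. Gatb, a subunit of the enzyme that turns glutamate on glutamine transfer RNA into glutamine, was highest at 1.07 (0.972 to 1.18). Mtfmt, which formylates the initiator methionine transfer RNA, was lowest at 0.896 (0.826 to 0.972). Mitochondrial translation factors were lower in 5 of 8, with a median of 0.940. They ranged from Mrrf, the ribosome recycling factor, at 0.861 (0.773 to 0.958) to the initiation factor Mtif3 at 1.21 (1.1275 to 1.29), and both of these overlap another gene. At least 1.1-fold higher was 1 of the 8 and at least 1.1-fold lower 1 of the 8, near the 13.2% and 8.32% of all tested genes, of which 53.5% had a ratio over 1.

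The genes that sense uncharged transfer RNA, and those downstream of that signal, had a median near equality. Eif2ak4, the kinase GCN2 that is activated by uncharged transfer RNA, was at 1.76 FPKM in NC and 1.84 in DCA, a ratio of 1.04 (0.991 to 1.095). Atf4 was at 50.4 FPKM in NC against 52.1 in DCA, a ratio of 1.03 (1.01 to 1.06). Over the 9 genes of this list 6 were over 1, where 53.5% of all tested genes were, with a median of 1.03. Trib3, an ATF4 target that restrains the pathway, was highest at 1.17 (1.06 to 1.28), and Impact, an inhibitor of GCN2 activation, lowest at 0.928 (0.884 to 0.975). ATF4 is controlled largely through its translation and GCN2 through its activation, and RNA levels measure neither.

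**Figure D5:**
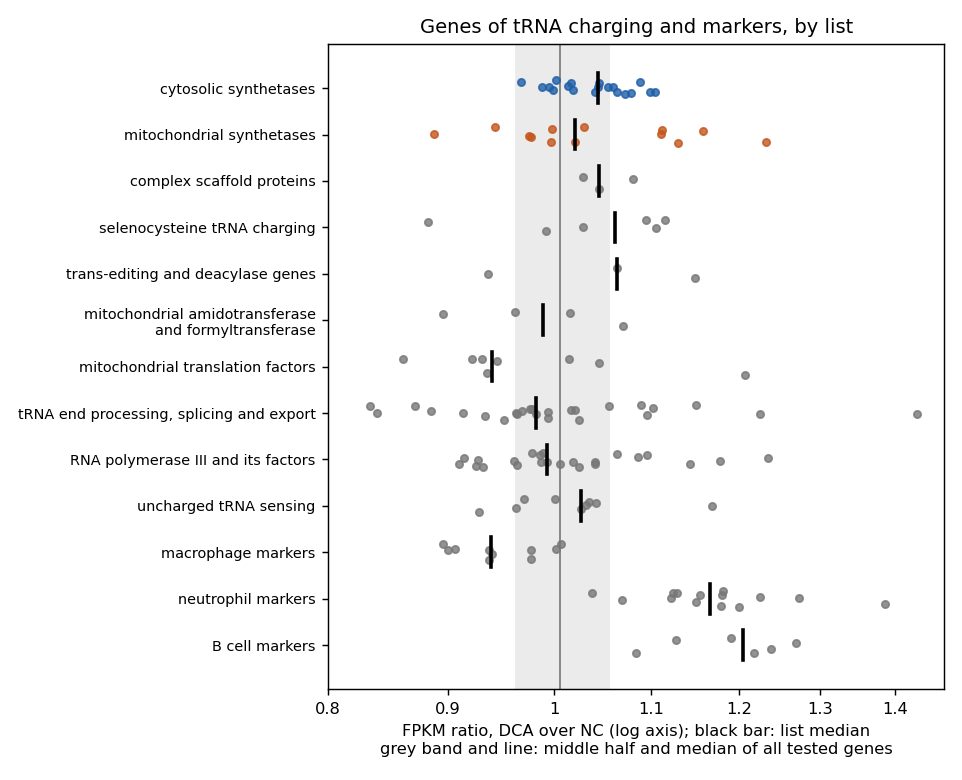
FPKM ratio, DCA over NC, on a log axis for the tested genes of each list shown, 1 point per gene, with the list median as a black bar and the median and interquartile range of all tested genes as a grey line and band. The median of the cytosolic synthetases is 1.04 and that of the mitochondrial ones 1.02, the neutrophil and B cell markers lie at 1.17 and 1.204, and the macrophage markers at 0.939.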

How the data were processed

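The authors deposited FPKM for 15576 genes, with Ensembl identifiers and symbols, in 1 column for each library; columns were matched to libraries by name and groups taken from the treatment label. The submitters' processing notes name GRCm38 as the build and list, with no role or order, DESeq2 3.0, HTSeq 0.6.0, bedtools 2.17.0, Picard 1.126 and STAR 2.5.0c. Not given in the sources used here were gene length, filters and strand setting. GENCODE vM21 (GRCm38) held 15548 of the identifiers. With the summed length of a gene's annotated transcripts, 12068 of 12491 genes with fewer than 5000 reads (96.6%) gave whole numbers of reads (within 0.05) in each library. A larger gene was rounded to the nearest read. Ratios used no pseudocount, because a pseudocount shrinks genes with low FPKM most. Kept were genes that averaged 1 FPKM or more with no 0, 9653 in all, 9467 of them with rebuilt reads. Exon overlap was taken by position on either strand. The principal transcript is the longest one that APPRIS marks as principal. Alternatives changed the pseudocount, the filter, the scaling, the fold limit, the overlapping genes and the membership of Gars1 and Kars1. Read recovery and intervals were tested on simulated data. Python 3.11.15, pandas 2.3.3 and SciPy 1.17.1 were used.

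The members and lists were chosen with earlier results of these data known. Genes named in full were the 4 highest and 4 lowest ratios in each compartment among tested genes and any member at least 1.1-fold apart; for the other lists, the highest and lowest tested gene, any gene at least 1.2-fold apart, and Atf4, Eif2ak4 and the scaffold genes. Wars1, Eprs1, Iars1, Nars1, Gars1, Nars2 and the overlapping neighbours were described further after their values were seen. The lists of T and NK cell, mast cell and basophil, eosinophil, dendritic cell and erythroid markers had median ratios over their genes above 0 of 1.23, 1.06, 1.47, 1.048 and 1.70, the erythroid list at no more than 0.547 summed FPKM. Some items of the lists and promoters are not reported here.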

Additional observations from a re-analysis of the deposited data

How the results depend on the processing

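The cytosolic median stayed above 0 in log2 under each of the 9 alternatives that can move it, between 0.05 and 0.06, and the mitochondrial one moved more. With a mean FPKM of at least 5 only Iars2 was left of the mitochondrial genes, so the median was its own log2 ratio of -0.0043 and 0 genes were over 1, 0 at least 1.1-fold higher and 0 lower. Without genes with overlapping exons the cytosolic minus mitochondrial distance turned to -0.094, with 0 cytosolic genes at least 1.1-fold higher and 0 mitochondrial genes lower. Wars2 and Pars2, tested in part through their DCA value, were among the mitochondrial genes there. Counts past 1.1-fold rest on genes close to the limit. The cytosolic count of 1 higher was 0 with a pseudocount of 1 or 5, after rescaling each library to 1e6, and after centring on the median of the tested genes, 0 at a limit of 1.2 and 8 at a limit of 5%. The mitochondrial count of 5 higher was 1 with a pseudocount of 1, 0 with 5, and 1 at a limit of 1.2. The mitochondrial count of 1 lower was 0 with either pseudocount, 2 with no filter, 2 at 5% and 0 at 1.2. No paired analysis was possible because each group had 1 library. Depth limits the mitochondrial genes most: a ratio within about 8.97% of equality was not detectable for a gene of median reads.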

Other observations

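Genes that make and mature transfer RNA had list medians just below equality. RNA polymerase III subunits and factors, which transcribe transfer RNA genes, had a median ratio of 0.993 over 23 tested genes. Of these 11 were over 1, where 53.5% of all tested genes were. Within this list Polr3b, a catalytic subunit, was highest at 1.23 (1.17 to 1.31), with 6.19 FPKM in DCA and 5.02 in NC, and overlaps another gene. Gtf3c4, a subunit of TFIIIC, was lowest at 0.911 (0.868 to 0.955). Genes of end processing, splicing and export had a median of 0.983 over 25 tested genes, 10 of them over 1. Pop7, a subunit of RNase P, was at 1.43 (1.27 to 1.61) from 682 and 499 reads, and Trmt10c, a subunit of mitochondrial RNase P, at 1.23 (1.15 to 1.31) from 1982 and 1693 reads. The lowest was Tsen34, a subunit of the splicing endonuclease, at 0.833 (0.780 to 0.891), which overlaps another gene.

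The E-box CACGTG, which reads alike on both strands, was found in 4 of 12 cytosolic synthetase promoters (33.3%), in 1 of 14 mitochondrial ones (7.14%) and in 7.15% of all promoters in the RefSeq table. Aars1, Iars1 and Tars1 held it together with TGATGNAA, at sites that did not overlap. The cytosolic genes with an E-box had a median ratio of 1.04, as did those without it.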
